A study of Homo sapiens with 8 samples.

Results

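The data compare T47D cells that carried a conditional hairpin RNA (shRNA) against EglN2 with T47D cells that carried the Scr control shRNA, both taken after 48 h of doxycycline at 1 ug/ml (day 2). T47D is an established human cell line from a breast carcinoma with estrogen receptors, and both hairpins had been brought in with lentivirus. The comparison uses 4 of the 8 arrays of the series, the 2 titled EglN2 shRNA day 2 and the 2 titled Scr day 2, chosen by title alone. The other 4 arrays hold the same lines at day 0, with doxycycline for 0 h. They entered the fit as an estimate of the spread, and they show which differences between the lines were there before induction. All 4 day 2 arrays are of cells given doxycycline, so the comparison holds the drug constant and differs in the line and its hairpin. How many EglN2 hairpins were used, whether the lines are clones or pools, and whether the replicates are separate cultures, is not given in the sources used here. The p-values therefore measure the spread between these arrays, which may be technical.

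EGLN2 encodes a member of the family of prolyl hydroxylases that use oxygen, iron and oxoglutarate to modify the alpha chains of HIF, the hypoxia-inducible transcription factor. Hydroxylated HIF alpha is bound by the VHL protein and degraded, which is why these enzymes are known as oxygen sensors. In breast carcinoma cells EGLN2 is known as an estrogen-induced member of the family, and it has been linked to cyclin D1 and to proliferation. Levels are on the log2 scale of RMA, 1 value per probe set of a gene array, so a difference of 1 is a doubling, and the test covered the 21214 named probe sets.

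The lines resembled each other closely at day 2. Replicate arrays correlated at 0.996 in Scr and 0.992 in EglN2 shRNA, and arrays of different lines at 0.993 to 0.996. The EglN2 shRNA replicates stood further apart than the Scr replicates: 80 probe sets differed by over 1 between the former and 6 between the latter. Breast luminal genes were bright in both lines, with 18 of 19 measured luminal markers among the brightest 25% of all probe sets. Of the leukocyte and endothelial markers 0 of 19, of the fibroblast markers 0 of 13 and of the basal and mesenchymal markers 1 of 14 lay there. The mean level of the luminal markers was 11.65 and 11.66 on the Scr arrays and 11.58 and 11.66 on the EglN2 shRNA arrays. In these bulk samples fewer cells of a kind and less RNA per cell cannot be told apart.

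EGLN2, the gene the hairpin targets, was lowest on the pair of EglN2 shRNA arrays at day 2. Its probe set, shared with the read-through transcript RAB4B-EGLN2, read 8.26 and 8.29 there and 8.81 and 8.90 in Scr at day 2. The groups did not overlap, and both values lay below all 6 other arrays, which ran from 8.81 to 9.04. The difference was -0.58 (SE 0.11, 95% confidence interval -0.82 to -0.34), or 66.9% of the Scr level. It fell short of the threshold (limma, adjusted p = 0.151, threshold 0.05). At day 0 the lines differed by -0.04. The change of the line difference between the days, -0.54 (SE 0.15), did not pass either (adjusted p = 0.671).

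The other oxygen sensors and the HIF subunits showed no difference past the threshold. EGLN1, the main HIF hydroxylase of most cells, differed by 0.08 (SE 0.11, interval -0.17 to 0.34), and EGLN3, the hypoxia-induced member, by -0.06 (SE 0.13, interval -0.37 to 0.24). HIF1A read 10.59 and 10.70 in EglN2 shRNA and 11.03 and 11 in Scr, a difference of -0.37 (SE 0.13, adjusted p = 0.767) without overlap. Over all probe sets 14.8% were lower without overlap and 15.6% higher. HIF1A differed by 0.135 between the lines at day 0. From day 0 to day 2 it differed by 0.36 in the Scr line and by -0.145 in the EglN2 shRNA line. EPAS1, which encodes the HIF-2 alpha subunit, was higher in EglN2 shRNA at day 2, by 0.29 (SE 0.15, adjusted p = 0.995), also without overlap. CCND1, which encodes cyclin D1, read 10.48 and 10.78 in EglN2 shRNA and 10.60 and 10.95 in Scr. Those groups overlapped, with a difference of -0.14 (SE 0.16, interval -0.50 to 0.21), and its sign turned without EglN2 shRNA day 2 replicate 1 (0.005) or without Scr day 2 replicate 2 (0.03). Of the hormone receptor genes, ESR1 differed by -0.26 (SE 0.11, adjusted p = 0.960) on its brighter probe set and by -0.08 on the other, both without overlap. PGR differed by -0.14 (SE 0.15), with overlap.

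**Figure D1:**
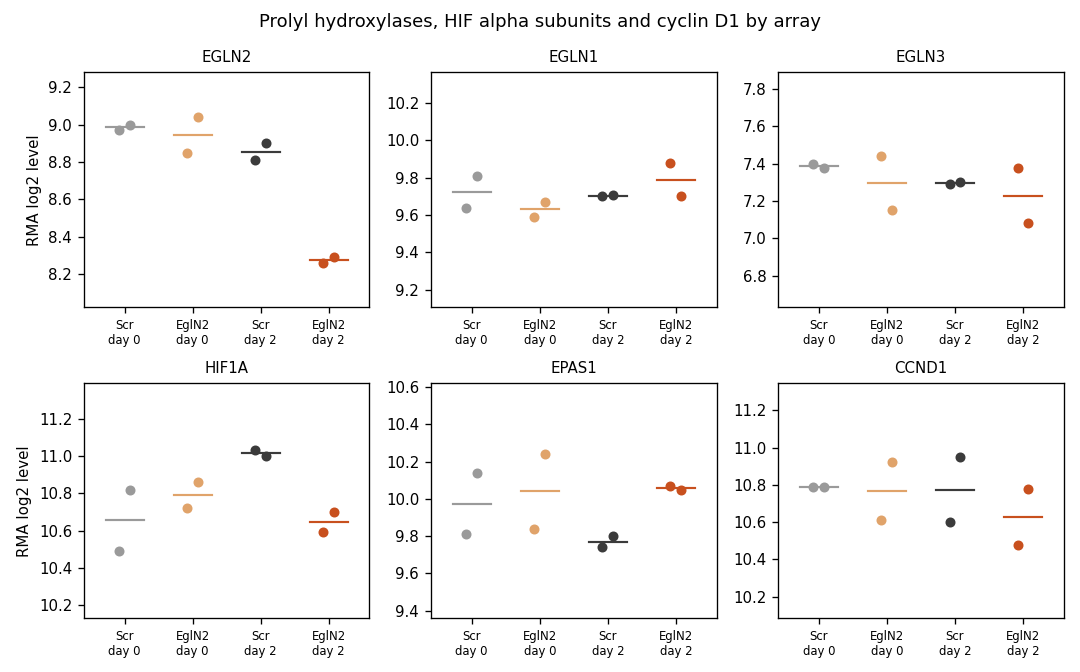
RMA log2 levels of the 3 prolyl hydroxylase genes, both HIF alpha genes and CCND1 on all 8 arrays; points are arrays, bars are means of 2, and each panel has its own axis. EGLN2 on the EglN2 shRNA arrays at day 2 (8.26 and 8.29) lies below its other 6 values, while the CCND1 groups overlap.

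Between the lines at day 2, 16 probe sets of 14 genes passed the threshold (limma, Benjamini-Hochberg adjusted p under 0.05), which is 0.0754% of the probe sets tested. Of these, 14 probe sets of 13 genes were lower in EglN2 shRNA and 2 probe sets of 1 gene, PPP1R11, were higher, 0.066% and 0.00943% of those tested. The sizes ran from 1.70-fold to 6.48-fold, the largest for BCHE, which was dim in EglN2 shRNA. On all 14 lower probe sets both EglN2 shRNA arrays at day 2 lay below all 6 other arrays, a position held by 3.79% of all probe sets. The 6 include the Scr arrays at day 2, against which these probe sets were called. That position therefore describes the calls and is no separate support for them. For an unadjusted p under 0.05 the share of all probe sets was 5.19%, 2.49% higher and 2.69% lower.

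A first group of these genes works on RNA and chromatin. ALYREF, an adaptor that loads messenger RNA onto the nuclear export machinery, read 10.74 and 10.89 in EglN2 shRNA and 12.11 and 12.13 in Scr. It was lower by 2.47-fold (log2 difference -1.30, SE 0.11, adjusted p = 0.00424), and its second probe set differed by -1.28 (SE 0.11). Both ALYREF probe sets stood close together on every array and may not be separate measurements. ALYREF differed by -0.08 at day 0, and the EglN2 shRNA arrays at day 2 are the ones that stand apart. EXOSC7, a ring subunit of the RNA exosome that degrades and trims RNA from its 3' end, read 8.24 and 8.40 against 9.22 and 9.37 (difference -0.97, SE 0.11, adjusted p = 0.0234). GLYR1, a chromatin protein that binds nucleosomes of transcribed genes, read 8.90 and 8.92 against 9.76 and 9.92 (difference -0.93, SE 0.12, adjusted p = 0.0328). Both already leaned the same way at day 0, at -0.22 and -0.32, short of the threshold.

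Partners of these proteins gave smaller values. Among the 26 measured genes of mRNA export, ALYREF was the 1 called. THOC1, a subunit of the complex that recruits ALYREF, had the highest value at 0.255, and 0.40 at day 0. The list's median was 0.02, beside 0.005 over all probe sets, and turned to -0.0275 without EglN2 shRNA day 2 replicate 2. The 11 measured subunits of the exosome, a set chosen after the values were seen, had a median of 0.03, with EXOSC5 highest at 0.305 and EXOSC8 the next lowest after EXOSC7 at -0.105.

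A second group encodes mitochondrial proteins. BCKDK, the kinase that switches off the breakdown of branched-chain keto acids by phosphorylating their dehydrogenase, read 8.67 and 8.87 in EglN2 shRNA against 9.77 and 9.86 in Scr (difference -1.04, SE 0.12, adjusted p = 0.0234). PPM1K, the phosphatase that removes the same phosphate and so opposes BCKDK, read 7.46 and 7.55 against 8.36 and 8.39 (difference -0.87, SE 0.11, adjusted p = 0.0328). A second PPM1K probe set was lower in the same direction but did not pass, at -0.43 (SE 0.13, adjusted p = 0.569). The kinase and the phosphatase of the same complex were both lower on the probe sets that passed. AGK, a lipid kinase of mitochondria that also serves in the import of inner membrane proteins, read 8.50 and 8.61 against 9.30 and 9.34 (difference -0.76, SE 0.10, adjusted p = 0.0385). The dehydrogenase itself gave mixed values, in a set chosen after the values were seen: its E1 beta subunit BCKDHB differed by -0.49 (SE 0.12, adjusted p = 0.356), the E1 alpha subunit BCKDHA by 0.16, the E2 subunit DBT by 0.10 and the shared E3 subunit DLD by 0.04.

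A pair of actin regulators and a pair of endoplasmic reticulum proteins were also lower. CAPZA1, a subunit of the protein that caps the growing end of actin filaments, read 8.51 and 8.52 against 9.49 and 9.38 (difference -0.92, SE 0.12, adjusted p = 0.0356). PFN2, a profilin that feeds actin monomers to filaments, read 9.31 and 9.40 against 10.30 and 10.15 (difference -0.87, SE 0.11, adjusted p = 0.0328). Their close relatives gave smaller values: CAPZA2 differed by -0.31, CAPZB by 0.04 and PFN1 by -0.04. DNAJC10, a reductase that helps misfolded proteins leave the endoplasmic reticulum, read 9.23 and 9.46 against 10.19 and 10.16 (difference -0.83, SE 0.11, adjusted p = 0.0385). CKAP4, a membrane protein that shapes the sheets of that organelle, read 9.14 and 9.08 against 9.85 and 9.93 (difference -0.78, SE 0.10, adjusted p = 0.0385). Within the 23 measured genes of the unfolded protein response DNAJC10 was the 1 called. DNAJC3, a co-chaperone of the same compartment, differed by -0.47 (SE 0.11, adjusted p = 0.332), and the list's median was -0.03 (0.005 without EglN2 shRNA day 2 replicate 1).

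The remaining lower genes encode secreted and vesicle proteins. BCHE, which encodes the secreted enzyme butyrylcholinesterase, showed the widest gap of all, with 5.44 and 5.59 in EglN2 shRNA and 8.56 and 7.86 in Scr. That is 15.4% of the Scr level (difference -2.69, SE 0.25, adjusted p = 0.00973). The EglN2 shRNA values lay below the mean level of the leukocyte and endothelial markers on those arrays (6.04 and 6.17). BCHE was thus dim there, and the size of its ratio is uncertain. IGFBP5, a secreted binding protein for insulin-like growth factors that estrogen-responsive breast cells make, read 10 and 10.44 against 11.64 and 11.72 (difference -1.46, SE 0.16, adjusted p = 0.0234). It was the 1 called member of the insulin-like growth factor axis, where 12 of 24 measured members were negative and the receptor gene IGF1R differed by -0.355 (SE 0.13, adjusted p = 0.849) on the probe set with the higher mean and by -0.83 (SE 0.20, adjusted p = 0.372) on the other. WDR45B, a phosphoinositide-binding protein of autophagy, read 9.99 and 10.26 against 10.96 and 11.15 (difference -0.93, SE 0.13, adjusted p = 0.0393).

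PPP1R11 encodes an inhibitor of protein phosphatase 1 and was the only gene called higher. It read 9.71 and 9.62 in EglN2 shRNA and 8.75 and 8.91 in Scr (difference 0.83, SE 0.11, adjusted p = 0.0328). Its 2 probe sets hold the same values on every array and count as 1 measurement. The 4 day 0 arrays read 9.67 to 9.78, next to the EglN2 shRNA arrays at day 2, so the Scr arrays at day 2 were the ones apart. The Scr line differed by -0.91 between its days and the EglN2 shRNA line by -0.02. The phosphatase's catalytic subunit genes, a set chosen after the values were seen, differed by 0.01 (PPP1CA), 0.17 (PPP1CB) and -0.22 (PPP1CC).

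**Figure D2:**
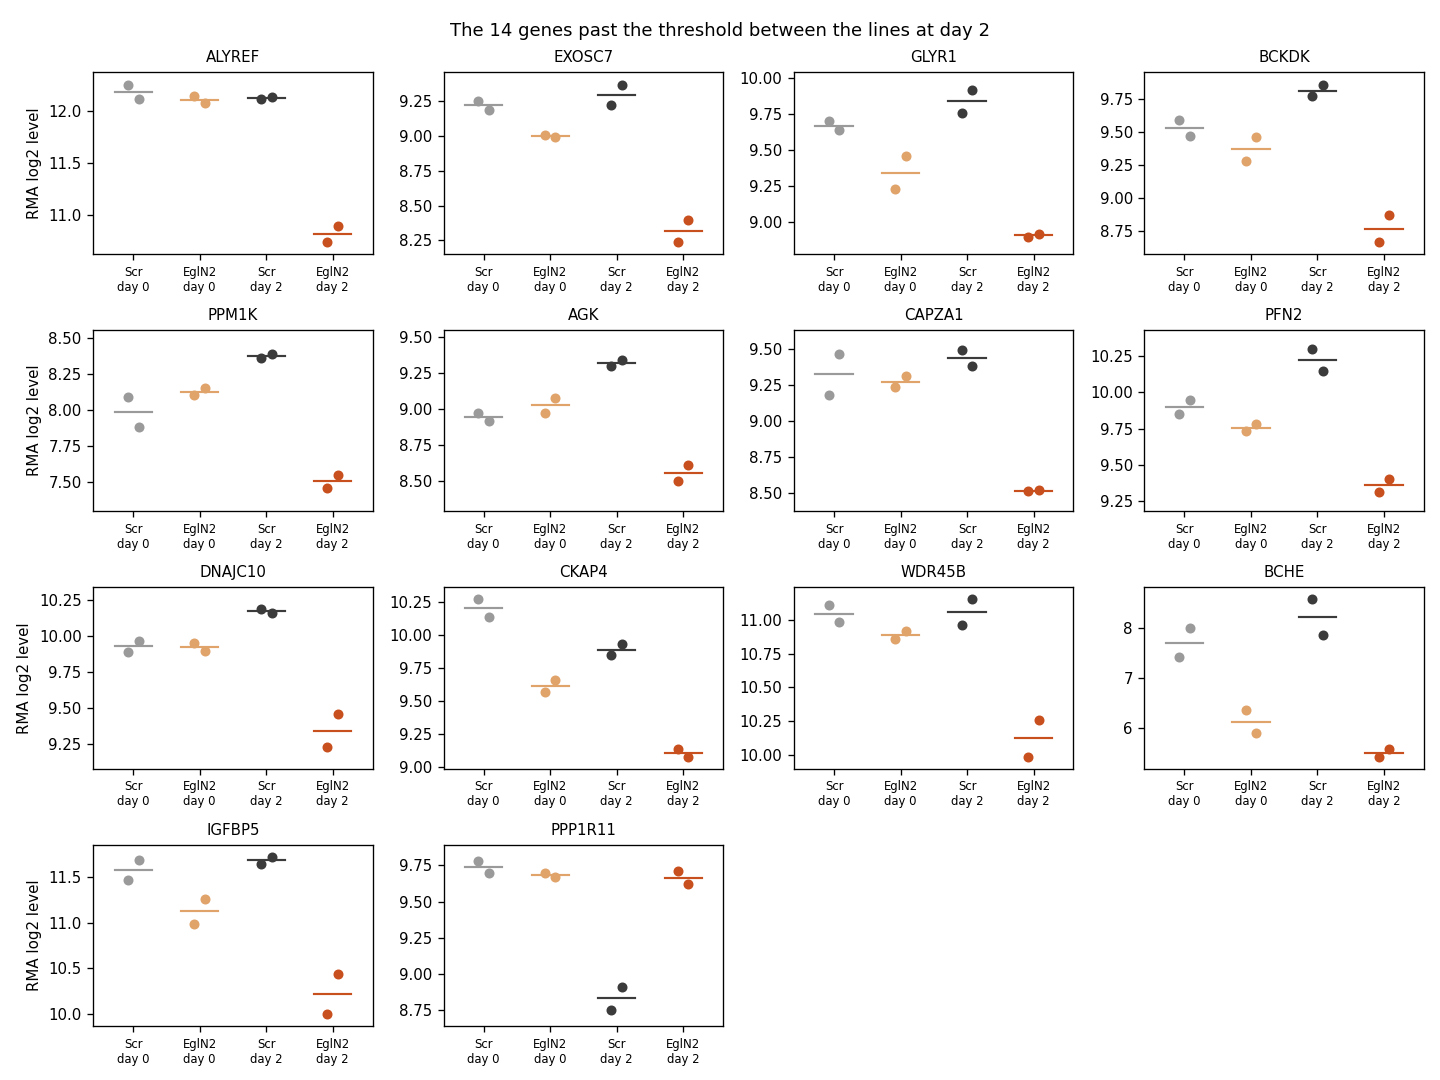
RMA log2 levels of the 14 genes past the threshold, on all 8 arrays (probe set with the largest difference); points are arrays, bars are means of 2, and each panel has its own axis. In 13 panels the EglN2 shRNA arrays at day 2 are the lowest, and for PPP1R11 the Scr arrays at day 2 are.

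The next positive differences by moderated t did not pass. They were IPPK (0.70, SE 0.11, adjusted p = 0.0794), an inositol phosphate kinase, the deubiquitinase OTUD4 (0.63, adjusted p = 0.0950) and SLC16A4 (0.60), a carrier of the monocarboxylate transporter family. Values that also missed the threshold were 0.66 for KLHL28, 0.66 for the phosphodiesterase PDE8B, 0.58 for MCFD2, which works in transport from the endoplasmic reticulum, and 0.53 for MRGBP, a subunit of a histone acetyltransferase complex. TGOLN2 (0.57), GOLM1 (0.78), both Golgi membrane proteins, and PIKFYVE (0.52), a lipid kinase of endosomes, closed the set, at adjusted p values up to 0.246. Several of these differences were present at day 0. PDE8B differed by 0.65 then, SLC16A4 by 0.555, MCFD2 by 0.435, KLHL28 by 0.415 and GOLM1 by 0.415. The others were at 0.285 (PIKFYVE), 0.275 (IPPK), 0.17 (TGOLN2), 0.135 (OTUD4) and -0.05 (MRGBP) at day 0.

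The day 0 arrays show how much of each difference was there before doxycycline. Of the 16 called probe sets, 12 had the same sign at day 0, and 2 (BCHE and CKAP4) already had a difference of at least 50% of the size at day 2. BCHE read 6.36 and 5.90 in EglN2 shRNA at day 0 against 7.41 and 7.99 in Scr, a difference of -1.57. CKAP4 differed by -0.59 at day 0 and -0.78 at day 2, and IGFBP5 by -0.45 and -1.46. By contrast ALYREF, CAPZA1, DNAJC10, AGK, PPP1R11 and EGLN2 differed by less than 0.10 in either direction between the lines at day 0. Over all 21214 probe sets the line differences at day 0 and day 2, which share no array, correlated at r = 0.030 across probe sets, which are not independent.

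The test of the change of the line difference called 0 of 21214 probe sets (0%), with limma and an adjusted p threshold of 0.05. In that test 1511 probe sets (7.12%) fell below 0.05 unadjusted, and the smallest adjusted p was 0.165, for ALYREF. The ALYREF change was -1.23 (SE 0.15) and that of PPM1K -1.01 (SE 0.15, adjusted p = 0.472), while that of CKAP4 was -0.19 (SE 0.15, adjusted p = 0.763). When the prior variance followed intensity, both ALYREF probe sets passed (smallest adjusted p = 0.0143). Between the lines at day 0, 0 probe sets (0%) were called, with 2213 (10.4%) at an unadjusted p under 0.05.

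**Figure D3:**
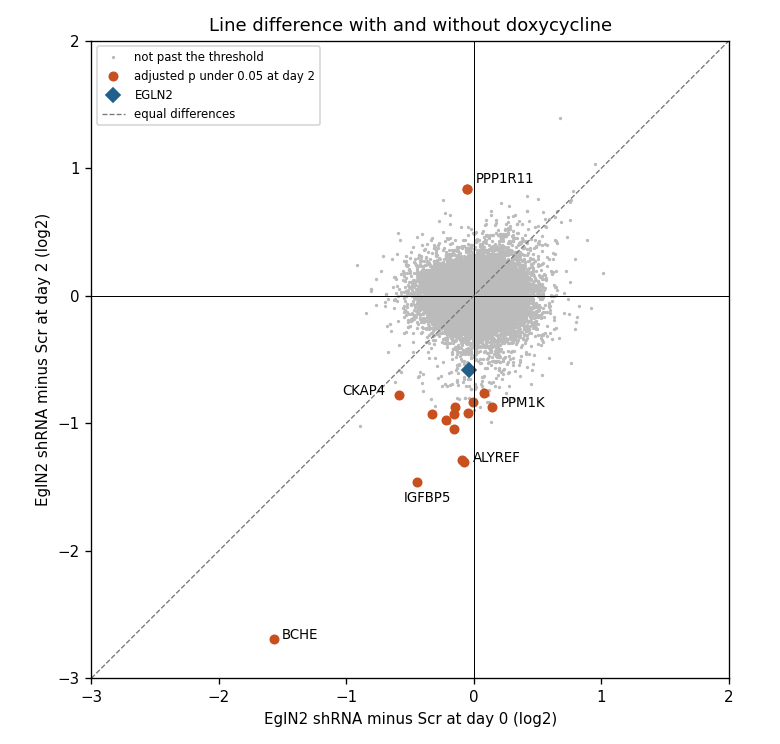
Line difference at day 2 (vertical, log2) against that at day 0 (horizontal, log2) for 21214 probe sets; grey points did not pass at day 2, orange points did, the blue diamond is EGLN2 and the dashed line marks equal differences. BCHE (-1.57 and -2.69) and CKAP4 (-0.59 and -0.78) lie left of the other called genes, CKAP4 near the dashed line, while ALYREF and EGLN2 lie near 0 on the horizontal axis.

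The number of calls changed when single arrays were left out, in fits with fewer residual degrees of freedom, where a group of 1 array is assumed to vary like the others. Without Scr day 2 replicate 1 no probe set passed, and 764 had an unadjusted p under 0.05. Without Scr day 2 replicate 2 there was 1 called, without EglN2 shRNA day 2 replicate 1 there were 2, and without EglN2 shRNA day 2 replicate 2 there were 15, of which 8 were among the 16. Leaving out a day 0 array left 3 (either Scr array) or 4 (either EglN2 shRNA array), although the day 2 differences are then the same by construction. The differences themselves moved less: ALYREF ran from -1.38 to -1.23 on the probe set with the larger difference, BCHE from -3.04 to -2.34 and IGFBP5 from -1.68 to -1.24. Every called probe set kept its sign. The day 2 groups did not overlap for any of the 16, so leaving out 1 array could not turn a sign. Both ALYREF probe sets and BCHE passed in 6 of the 8, IGFBP5 in 3, and AGK, CAPZA1, CKAP4, GLYR1, PFN2, PPM1K and PPP1R11 in 0.

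Neighbouring genes were compared as well, by the gene order of the RefSeq table of GRCh38.p14. Of the 28 measured protein-coding genes next to a called gene, 0 were called with limma, and 4 had an unadjusted p under 0.05, beside 0.0754% and 5.19% of all probe sets. Of those 4, MRPS33 had a negative value and TCP11L2, UBN1 and FOXK2 had positive ones. ARHGDIA and ANAPC11, on either side of ALYREF, differed by -0.005 and 0.21, and IGFBP2, next to IGFBP5, by -0.19. MRPS33, next to AGK, had the lowest value, -0.65 (SE 0.14, adjusted p = 0.297), and TCP11L2, next to CKAP4, the highest, 0.56 (SE 0.17, adjusted p = 0.603).

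Promoters were read for the HIF core motif, ACGTG or GCGTG on either strand (CACGT or CACGC on the other), in the 250 bases before the start of each gene (RefSeq, GRCh38.p14). Of the 14 called genes 12 had an entry, and 7 of those 12 held the motif. Over 14239 genes with a probe set of their own the share was 51.1%, so the called genes were near the background. The 4 sequences below are those of the most changed export factor, of both regulators of the branched-chain dehydrogenase and of the insulin-like growth factor binding protein, with the motif in capitals. ALYREF lies at chr17:81891588-81891837 on the minus strand and BCKDK at chr16:31108136-31108385 on the plus strand. PPM1K lies at chr4:88284562-88284811 and IGFBP5 at chr2:216695550-216695799, both on the minus strand.
ALYREF: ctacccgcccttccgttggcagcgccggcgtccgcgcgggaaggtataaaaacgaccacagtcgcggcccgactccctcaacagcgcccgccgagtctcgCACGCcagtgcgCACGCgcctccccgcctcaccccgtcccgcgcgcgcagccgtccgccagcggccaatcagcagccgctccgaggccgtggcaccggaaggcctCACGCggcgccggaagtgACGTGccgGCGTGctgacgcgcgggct
BCKDK: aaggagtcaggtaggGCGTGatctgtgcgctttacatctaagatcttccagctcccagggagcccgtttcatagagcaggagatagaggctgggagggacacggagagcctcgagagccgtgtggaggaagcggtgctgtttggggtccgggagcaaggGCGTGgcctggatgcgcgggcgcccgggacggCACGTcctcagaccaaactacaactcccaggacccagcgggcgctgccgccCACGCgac
PPM1K: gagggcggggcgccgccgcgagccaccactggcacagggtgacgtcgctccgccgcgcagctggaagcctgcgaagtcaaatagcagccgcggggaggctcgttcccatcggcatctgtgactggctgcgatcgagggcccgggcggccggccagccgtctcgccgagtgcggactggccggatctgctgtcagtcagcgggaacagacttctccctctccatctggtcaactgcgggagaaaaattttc
IGFBP5: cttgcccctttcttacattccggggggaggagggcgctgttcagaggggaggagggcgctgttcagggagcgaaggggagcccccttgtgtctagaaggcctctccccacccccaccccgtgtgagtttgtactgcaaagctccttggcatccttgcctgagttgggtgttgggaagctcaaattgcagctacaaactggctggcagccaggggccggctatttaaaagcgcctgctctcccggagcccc
The ALYREF window holds 5 matches and the BCKDK window 4, while those of PPM1K and IGFBP5 hold 0. A match describes letters in the window and is not evidence of a bound site.

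Genes of dividing cells had lower values in EglN2 shRNA at day 2 as lists, though 0 members passed. All 35 measured mitosis genes were negative, with a median of -0.165 beside 0.005 over all probe sets, where 50.3% were positive. The 2 groups did not overlap for 25 of the 35, all lower, a position that 14.8% of all probe sets held. The 37 measured genes of G1/S and replication had a median of -0.14, 33 of them negative, and the 32 measured replication-dependent histones a median of -0.21, 31 negative. The 3 lists share no gene with each other.

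Among the replication genes CDT1, which licenses replication origins, read 9.06 and 9.10 against 9.75 and 9.81 (difference -0.70, SE 0.13, adjusted p = 0.155). CLSPN, a checkpoint mediator, differed by -0.71 (SE 0.19) and, on a second probe set, by -0.46 (SE 0.19), and the ribonucleotide reductase subunit RRM2 by -0.39 (SE 0.12). In mitosis the kinetochore gene SPC25 differed by -0.49 (SE 0.14) and the spindle motor gene KIF11 by -0.41 (SE 0.14), and among histones H2BC8 by -0.54 (SE 0.14). The same lists had positive medians at day 0, at 0.155 for mitosis, 0.105 for replication and 0.0875 for histones. The sign of the medians thus differed between the days, and the median change was -0.335, -0.235 and -0.29, with 0 members past the threshold. Within each line from day 0 to day 2, the median difference of the mitosis genes was -0.095 in the EglN2 shRNA line and 0.275 in the Scr line. That of the replication genes was -0.085 in the EglN2 shRNA line and 0.145 in the Scr line. For the histones it was 0.0225 in the EglN2 shRNA line and 0.32 in the Scr line.

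The size of these medians rested on single arrays. The mitosis median was -0.235 without EglN2 shRNA day 2 replicate 2 and -0.105 without replicate 1 of that group. The replication median ran from -0.21 without Scr day 2 replicate 1 to -0.07 without Scr day 2 replicate 2. The histone median was -0.33 without EglN2 shRNA day 2 replicate 2, -0.115 without replicate 1 of that group and -0.095 without Scr day 2 replicate 2. Cyclins, their kinases and inhibitors had a median of -0.08 over 19 measured members, with CCNE1, the G1/S cyclin E gene, at -0.27 (SE 0.12).

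Targets of ATF4, a transcription factor of amino acid stress, had higher values. Of 42 measured members 38 were positive, with a median of 0.14 (0.14 to 0.165 with single arrays left out), and in 32 of them the EglN2 shRNA arrays lay above both Scr arrays, a position that 15.6% of all probe sets held. The transsulfuration enzyme gene CBS read 9.29 and 9.21 against 8.77 and 8.84 (difference 0.44, SE 0.10, adjusted p = 0.322). The stress protein gene NUPR1 differed by 0.53 (SE 0.12) and the serine synthesis enzyme gene PSAT1 by 0.54 (SE 0.15), and 0 members passed. The median was 0.13 at day 0, before doxycycline, and PSAT1 itself differed by 0.505 then.

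HIF target genes had a median of 0.09 over 34 measured members, 23 of them positive and 0 past the threshold, and a median of 0.10 at day 0. The day 2 median was 0.045 without EglN2 shRNA day 2 replicate 1. NDRG1, a hypoxia- and stress-induced gene, had the largest positive difference of the list, but its replicates were far apart, at 10.14 and 8.66 in EglN2 shRNA against 8.17 and 7.85 in Scr (difference 1.39, SE 0.39, adjusted p = 0.510). NDRG1 already differed by 0.675 between the lines at day 0. The carbonic anhydrase gene CA12 differed by 0.31 (SE 0.13), ALDOC by 0.42 (SE 0.16) and STC2 by 0.31 (SE 0.12). Targets of the FOXO factors had 19 of 23 measured members positive, with a median of 0.07 (0.125 without EglN2 shRNA day 2 replicate 2), and of 0.065 at day 0, and 0 members passed. Among them the ubiquitin ligase gene FBXO32 differed by 0.56 (SE 0.13) at day 2 and 0.255 at day 0, and the receptor gene ERBB3 by 0.47 (SE 0.10, adjusted p = 0.305) and 0.12.

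Oxidative phosphorylation subunits were positive in 29 of 32 measured members, with a median of 0.10, and 0.09 at day 0. The day 2 median was 0.0625 without Scr day 2 replicate 1. Of the estrogen response genes 20 of 32 measured were negative, with a median of -0.08 that was -0.025 without EglN2 shRNA day 2 replicate 1. IGFBP5 was the 1 called, and PDZK1, a scaffold protein gene whose probe set also carries a pseudogene's name, read 7.48 and 7.58 against 8.46 and 8.33 (difference -0.86, SE 0.14, adjusted p = 0.0954). The EglN2 shRNA line had the same PDZK1 values, 7.48 and 7.58, at day 0, while the Scr line differed by 0.56 between its days. At day 0 the lines differed by -0.305 for PDZK1. The next members by p were higher without overlap, SERPINA1 by 0.34 (SE 0.12) and STC2 by 0.315 (SE 0.12), and did not pass. Of the 32 members, 3 were higher and 2 lower at an unadjusted p under 0.05 (limma), beside 2.49% and 2.69% of all probe sets. Over all 34 lists, the medians ran from -0.21 for histones to 0.14 for amino acid stress, and 4 lists held a called member. They hold 3 called genes, ALYREF, DNAJC10 and IGFBP5, the last in both the estrogen response and the growth factor list, out of 777 distinct measured members, beside 0.0754% of all probe sets called. ALYREF and IGFBP5 were given with the comparison, and the lists were chosen with earlier results of these data known. The counts are therefore no sign that the lists are richer in calls.

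**Figure D4:**
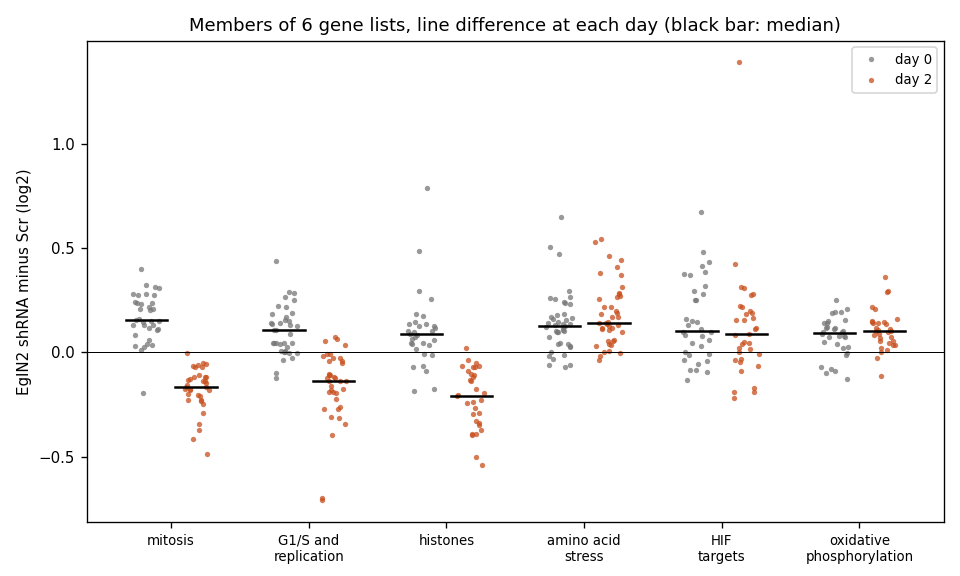
EglN2 shRNA minus Scr (log2) for each measured member of 6 gene lists at day 0 (grey) and day 2 (orange); black bars are medians. The mitosis median is 0.155 at day 0 and -0.165 at day 2, while that of amino acid stress is 0.13 and 0.14.

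**Figure D5:**
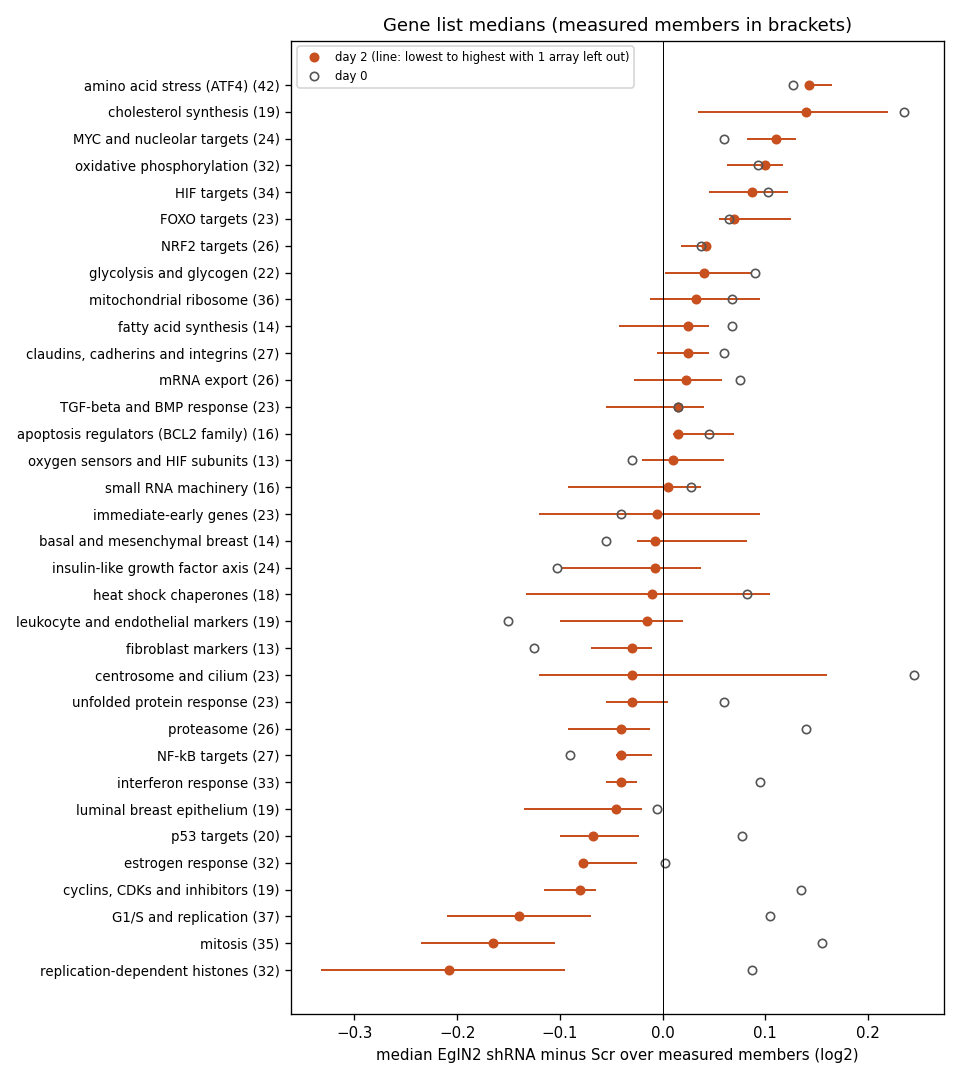
Median line difference (log2) of the 34 gene lists at day 2 (filled, with a line from the lowest to the highest median when 1 array is left out) and day 0 (open); measured members are in brackets. Histones (-0.21), mitosis (-0.165) and replication (-0.14) are lowest at day 2, and amino acid stress (0.14) is highest.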

How the data were processed

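Total RNA from 8 T47D samples was labelled with biotin and read on the Human Gene 1.0 ST array of Affymetrix. The authors deposited log2 values, 1 per probe set and array. The submitters' processing notes list RMA and Expression Console, without versions. The values run from 2.73 to 15.25 and were used as deposited. RMA compresses differences of dim genes, and scanner files, and so signal over background, were not analysed here.

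Of 33297 probe sets, 19460 carry a single gene name in the platform annotation, 1754 more than 1 and 12083 no name. Names were updated by gene ID through RefSeq (GRCh38.p14), which matched 19429 single names. Promoter sequences are those of RefSeq, GRCh38.p14.

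A model with 4 group means was fitted across the 8 arrays (limma 3.58.1, R 4.3.3, lmFit and eBayes; 4 residual and 5.53 prior degrees of freedom), two-sided, with Benjamini-Hochberg adjustment over 21214 named probe sets and a threshold of 0.05. Gene lists (34, with 816 genes) are described with 1 probe set per gene, that with the highest mean, by counts and medians and with no test of the list. The genes named are EGLN1 to EGLN3, HIF1A and EPAS1, ESR1 and PGR, ALYREF, IGFBP5 and CCND1, the 12 largest rises and falls past the threshold (places left over going to the largest moderated t), and up to 4 list members with the smallest p. AGK and CKAP4 passed outside that rule, and the neighbours and partners of called genes were chosen after the values were seen. The comparison, lists and rules were chosen with earlier results of these data known. Alternatives left out each array, added a replicate block, or changed the arrays fitted, the variance prior, the probe sets tested, the scaling or the array weights.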

Additional observations from a re-analysis of the deposited data

How the results depend on the processing

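The count of 16 probe sets called between the lines at day 2 ran from 0 to 15 when 1 array was left out. It was 0 with only the 4 day 2 arrays in the fit and 0 with all 33297 probe sets of the table, where the smallest adjusted p was 0.0723. It was 26 with the prior variance following intensity and 32 with a replicate block, both holding the 16. It was 11 with the arrays centred on their medians, 18 without the dimmest 25% of probe sets, 18 with quantile normalization repeated, and 16 with robust prior variance, 1 gene name only or array weights. The change of the line difference had 2 calls with the prior variance following intensity and 0 in the other fits, and the day 0 count was 0 in every fit run. EGLN2 ran from -0.625 to -0.535 with 1 array left out and passed in none of the fits (adjusted p from 0.0851 to 0.997). Every called probe set kept its sign in all fits. With 1 array left out this was fixed beforehand, since the day 2 groups of the 16 did not overlap. Among genes that were not called, the sign turned when 1 array was left out for CCND1 (-0.32 to 0.03), EGLN1 (-0.005 to 0.175), PGR (-0.365 to 0.095) and EGLN3 (-0.215 to 0.085). Replicates with the same number deviated together only weakly (r = 0.271 between the day 2 groups, from 0.0981 over all pairs of groups), and the labels do not say that a number marks a shared batch, so the block was not used in the main comparison. The change of the line difference needs all 8 arrays, and the EGLN2 probe set has 2 names, so neither has a value in the fits with 4 arrays and with single names, respectively. Precision is limited by having 2 arrays per group (median standard error 0.12).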

Other observations

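Claudins, cadherins and integrins, which join cells to each other and to the matrix, had a median of 0.025 at day 2 (-0.005 without Scr day 2 replicate 1), and 0 of 27 measured members passed. The tight junction gene CLDN6 read 5.27 and 5.50 in EglN2 shRNA and 4.81 and 4.98 in Scr at day 2 (difference 0.49, SE 0.12, adjusted p = 0.372), and it differed by -0.59 at day 0. These day 2 values lay below the mean level of the leukocyte and endothelial markers on the same arrays (6.04 to 6.17), so CLDN6 was dim. ITGA5, the fibronectin receptor subunit gene, differed by 0.37 (SE 0.11) at day 2 and -0.09 at day 0, and CLDN1 by 0.29 (SE 0.10) and 0.45. In the small RNA machinery, which processes hairpins and microRNAs, the median over 16 measured members was 0.005 (-0.0925 without EglN2 shRNA day 2 replicate 2, up to 0.0375 with another array left out), and AGO2, which cleaves targets of small RNAs, read 10.26 on both EglN2 shRNA arrays against 9.65 and 10 in Scr (difference 0.43, SE 0.13, adjusted p = 0.603). Interferon response genes had a median of -0.04 over 33 measured members, 22 negative and 11 positive. The members with the smallest p went both ways, with MX1 at -0.39 (SE 0.17), DDX60 at 0.35 (SE 0.16), IFI27 at -0.44 (SE 0.21) and IFITM3 at 0.29 (SE 0.14). Cholesterol synthesis genes had a median of 0.14 over 19 measured members, which was 0.035 without Scr day 2 replicate 1 and 0.22 at the other end of the range with 1 array left out, and 0.235 at day 0. Targets of MYC and nucleolar genes were positive in 20 of 24 measured members, with a median of 0.11, and 0.06 at day 0, and 0 members of either list passed.

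Probe sets with no gene name were examined in the fit of the whole table. Of these 12083 probe sets 0 were called with limma between the lines at day 2, and 581 (4.81%) had an unadjusted p under 0.05.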
